A study of Mus musculus with 6 samples.

Results

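The genes described here are the hormones, granule proteins and lineage factors of enteroendocrine cells, measured in the colon of mice with and without Hdac2 in the intestinal epithelium. Members were all probe sets whose platform gene symbol was in a list of 34 genes. The platform held 48 such probe sets, for 32 of the genes, among 45101 probe sets and 18193 named genes in all. Fev and Pcsk2 had no probe set under their symbols in the annotation used and were not analysed here. Of the 32 genes, 22 had a mean signal at or above the filter of 6.66 (RMA log2 signal) and were tested, and 10 lay below it.

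Enteroendocrine cells are scattered hormone-secreting cells of the gut epithelium. They arise in the crypt from secretory progenitors that switch on the transcription factor gene Neurog3, followed by Neurod1 and further factors that set the hormone made. Their peptides are cut from precursors by prohormone convertases, trimmed by carboxypeptidase E, and stored with chromogranins in dense-core granules. In the colon the common types are L cells, which make peptides from proglucagon together with peptide YY and insulin-like peptide 5, and enterochromaffin cells, which make serotonin.

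The data comprised 3 arrays of control mice and 3 of HDAC2 KO mice. In the HDAC2 KO group a floxed Hdac2 allele had been deleted by Cre under the villin promoter, which is active along the intestinal epithelium and not in the other cells of the gut wall. The animals were untreated, on a normal diet, and of a mixed CD-1/129/C57BL/6 background; the labels call the other group only control and do not say which of the alleles it carried. The source label of each array names 1 numbered mouse whereas its title names mice and a replicate number; whether animals were pooled and how old they were is not given. The labels name both colon epithelium and RNA of the colon, and the description of the HDAC2 KO arrays also names HDAC1, so the group is called after its title and genotype. Array values do not show whether a signal differs through the number of cells of a type or through the RNA of each cell.

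Hdac2 itself read 10.40, 10.37 and 10.43 in control and 10.21, 10.12 and 10.24 in HDAC2 KO (difference -0.21, SE 0.040, limma adjusted p = 0.00893). These values are from 1 probe set, whose name marks it as able to bind more than 1 transcript. Hdac1, which encodes the closely related deacetylase, read 10.35, 10.29 and 10.31 in control and 10.47, 10.41 and 10.52 in HDAC2 KO, so that it was higher and not lower (difference 0.15, SE 0.039, limma adjusted p = 0.0321). Whether the Hdac2 probe sets lie in the deleted part of the gene was not analysed here. The labelled tissue was checked against markers: all 8 pan-epithelial markers were above the signal filter and 0 of them were called by limma, with a median difference of 0.038 and 1 unadjusted p under 0.05 (Krt18, 0.0105). All 8 smooth muscle markers were above the filter as well, with a summed linear signal of 45550 to 46370 in control. Their control means ran from 10.2 (Smtn) to 13.56 (Acta2), against 11.2 (Elf3) to 14.43 (Krt8) for the pan-epithelial markers. The RNA therefore held muscle transcripts beside epithelial ones and was not of epithelium alone. How the tissue was taken is not given. Over all genes tested, HDAC2 KO replicate 2 deviated most from the mean of its group (root mean square 0.0799, against 0.0417 to 0.0658 on the other arrays).

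Differences below are log2 signals, HDAC2 KO minus control, and calls required an adjusted p below 0.05 over all 10916 genes tested. Among the 22 members tested, 9 were called, against 17.9% of all genes tested. Of these, 6 were higher (9.68% of all genes) and 3 lower (8.2% of all genes). The groups did not overlap for 12 of the 22 members, against 37.7% of all genes tested. The median difference of the tested members was -0.002 and that of all genes 0.0032. Among hormone and amine genes 4 of 7 tested rose and 1 fell. Among granule, processing and exocytosis genes 2 of 10 rose and 1 fell. Among lineage factors 1 of 5 fell and the others were not called.

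The calls of Pcsk1, Sst and Chga were kept in all 6 fits that left out 1 array each. The calls of Gcg, Pyy, Insl5, Sct, Cpe and Neurod1 were each lost in 4 or 5 of those 6 fits, while the sign of their differences was kept. These 6 are reported as called with that limit.

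**Figure D1:**
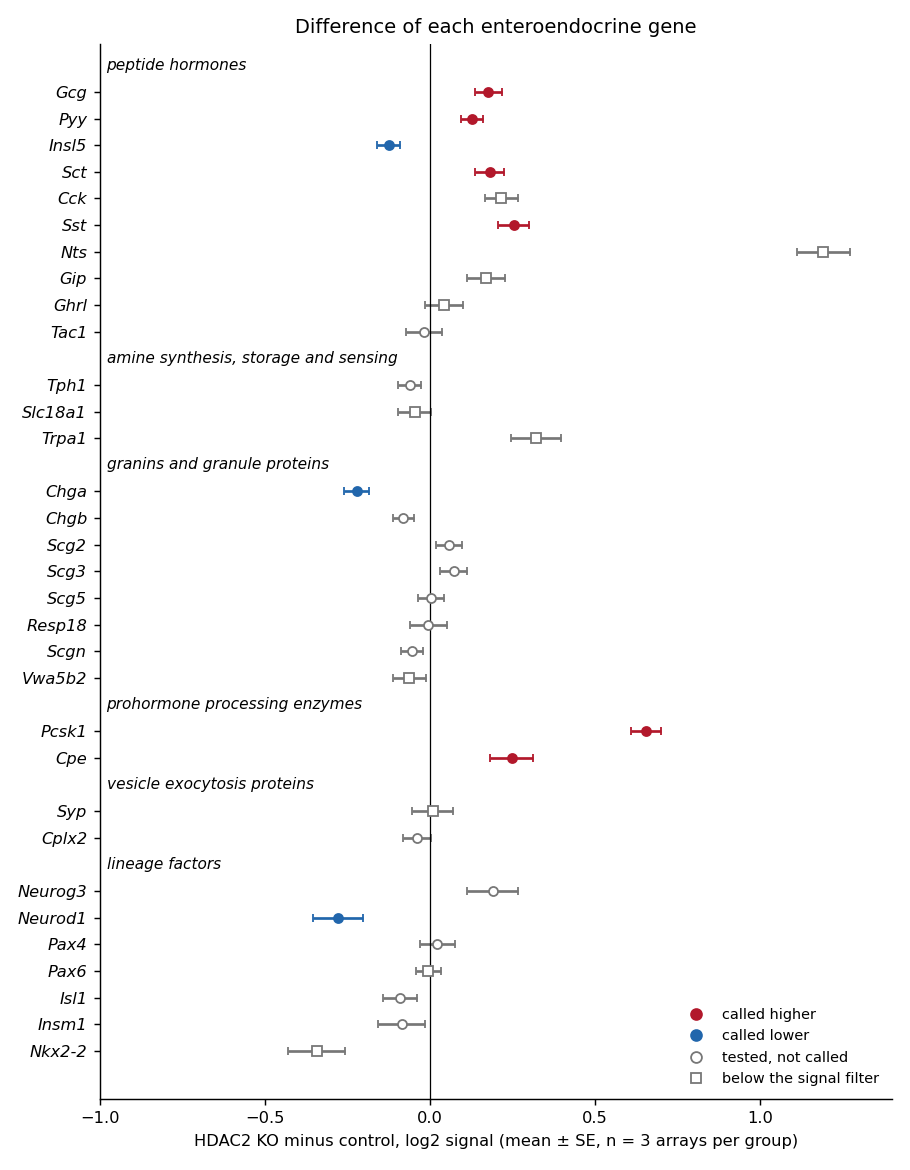
Difference between HDAC2 KO and control for each of the 32 member genes on the platform, in log2 signal, with bars of 1 SE (n = 3 arrays per group). Filled red circles are genes called higher, filled blue circles genes called lower, open circles genes tested and not called, and open squares genes below the signal filter. Nts (1.19) and Pcsk1 (0.65) stand to the right of all other members.

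Pcsk1 rose more than any other tested member. It encodes prohormone convertase 1/3, which in L cells cuts proglucagon into the glucagon-like peptides. Its signal was 7.16, 7.16 and 7.21 in control and 7.83, 7.91 and 7.74 in HDAC2 KO. Every HDAC2 KO array lay above every control array, by a gap several times the spread within either group. The difference was 0.65 (SE 0.046), a 1.57-fold rise (limma adjusted p = 5.75e-05), and 46 of the 1057 genes called higher had a larger one. Pcsk1 was the sole member among the 162 called genes that differed by at least 1.5-fold. The adjusted p stayed between 5e-05 and 0.000802 when any 1 array was left out.

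Cpe, which encodes the carboxypeptidase that trims basic residues from cut prohormones, also rose. It read 11.91, 11.74 and 11.89 in control and 12.12, 11.98 and 12.18 in HDAC2 KO, without overlap (difference 0.25, SE 0.065, 1.19-fold, limma adjusted p = 0.0342). The call was kept only without HDAC2 KO replicate 2 (the adjusted p without another array was 0.0587 to 0.102), and was lost without the signal filter (0.0879). A second probe set of Cpe, near the low end of the signal, was 5.29, 5.20 and 5.25 in control and 5.40, 5.53 and 5.78 in HDAC2 KO. Its name marks it as able to bind more than 1 transcript, its groups did not overlap either, and it was not called among all probe sets (difference 0.32, SE 0.094, limma adjusted p = 0.122).

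The promoter of Pcsk1 is shown because it is the member with the largest tested rise, and that of Sst, which rose next, because both hold the same motif. Sequences are from RefSeq on build GRCm38.p6, 250 bases before to 50 after the annotated start, given 5′ to 3′ on the strand of the gene. Pcsk1 is at chr13:75089607-75089906 on the + strand and Sst at chr16:23890795-23891094 on the - strand. Capitals mark the cAMP response element TGACGTCA, its core TGACG on either strand, and the E-box CANNTG, the motif of basic helix-loop-helix factors such as NEUROD1. TGACGTCA and CANNTG read alike on both strands in this notation, and each full element holds 2 matches of the core.
Pcsk1: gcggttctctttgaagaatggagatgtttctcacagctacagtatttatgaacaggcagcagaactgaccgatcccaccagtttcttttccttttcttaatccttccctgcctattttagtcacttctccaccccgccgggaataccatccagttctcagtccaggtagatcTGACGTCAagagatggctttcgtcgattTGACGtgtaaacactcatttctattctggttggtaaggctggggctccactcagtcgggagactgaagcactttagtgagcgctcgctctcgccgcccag
Sst: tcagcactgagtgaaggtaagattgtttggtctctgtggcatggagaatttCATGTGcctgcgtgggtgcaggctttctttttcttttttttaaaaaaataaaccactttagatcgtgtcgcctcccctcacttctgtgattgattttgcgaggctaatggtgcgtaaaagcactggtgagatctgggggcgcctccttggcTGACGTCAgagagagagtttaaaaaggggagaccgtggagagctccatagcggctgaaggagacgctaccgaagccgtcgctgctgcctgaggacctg
The full element starts at position -78 in Pcsk1 and -48 in Sst, where the annotated start is 1. It was found in 5 of the 29 members with a promoter in the table (Sst, Chgb, Scg2, Pcsk1 and Pax6) and in 549 of all 27025 genes there, or 2.03%. Of those 5, Pcsk1 and Sst were called higher, Chgb and Scg2 were tested and not called, and Pax6 lay below the filter. A match describes the letters and does not show a site in use.

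Of 10 peptide hormone genes, all on the platform, 6 were tested. Sst, Gcg, Sct and Pyy rose and Insl5 fell, while Tac1 was not called. Sst encodes somatostatin, the inhibitory peptide of D cells. It read 8.22, 8.26 and 8.18 in control and 8.55, 8.48 and 8.39 in HDAC2 KO, without overlap (difference 0.25, SE 0.047, 1.19-fold, limma adjusted p = 0.00831). Leaving out any 1 array gave an adjusted p of 0.00387 to 0.0384.

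The L cell hormones Gcg and Insl5 differed in direction. Gcg, which encodes proglucagon, read 10.84, 10.79 and 10.77 in control and 11.02, 10.91 and 11.00 in HDAC2 KO (difference 0.18, SE 0.041, 1.13-fold, limma adjusted p = 0.0223). Pyy, which encodes the appetite-suppressing peptide YY, read 11.80, 11.79 and 11.75 in control and 11.92, 11.91 and 11.89 in HDAC2 KO (difference 0.13, SE 0.033, 1.09-fold, limma adjusted p = 0.0322). Both genes were higher on every HDAC2 KO array than on any control array. Insl5, whose product is an orexigenic peptide of colonic L cells, read 12.11, 12.13 and 12.05 in control and 11.96, 11.98 and 11.98 in HDAC2 KO (difference -0.13, SE 0.035, limma adjusted p = 0.0422). Its HDAC2 KO arrays all lay below its control arrays.

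All 3 differences were small, and each call was lost in 5 of the 6 fits that left out 1 array. For Gcg the call was kept only without HDAC2 KO replicate 2, as for Pyy, with an adjusted p of 0.0508 to 0.0837 and 0.0591 to 0.11 in the other fits that left out an array. For Insl5 it was kept only without control replicate 3 (0.0534 to 0.147 in the others). With the replicate number as a block, the paired fit, Insl5 was not called (limma adjusted p = 0.0601), while Gcg (0.0281) and Pyy (0.043) were. Without the signal filter none of them was called, with adjusted p of 0.0695, 0.0991 and 0.118.

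Ratios within an array, chosen after the values were seen, set these hormones against each other. The log2 ratio of Gcg to Insl5 signal was -1.30 ± 0.037 (SD, n = 3) in control and -1.0 ± 0.069 in HDAC2 KO, a shift of 0.30. That of Pyy to Insl5 shifted by 0.25, from -0.32 ± 0.018 to -0.06 ± 0.026, and that of Gcg to Pyy by 0.05. For Pcsk1 to Chga the shift was 0.88. These 4 ratios are a description with no test. A gene that was higher without overlap over one that was lower without overlap had to separate the groups. Gcg to Pyy is the exception: both genes were higher, and their ratio overlapped between the groups.

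**Figure D2:**
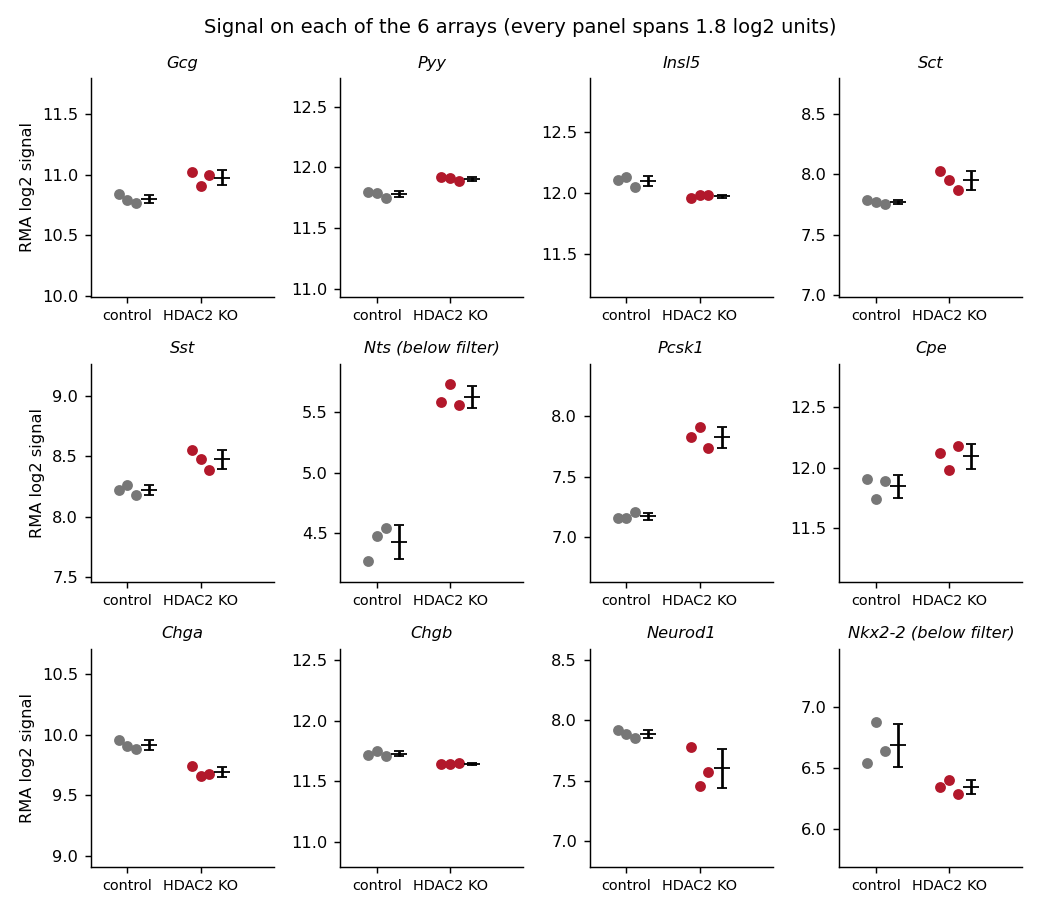
RMA log2 signal of 12 member genes on each of the 6 arrays, control in grey and HDAC2 KO in red, with the mean and SD of each group beside the points (n = 3). Every panel spans 1.8 log2 units, so distances can be compared between panels. The panels show a selection of members in which the groups do not overlap, and the gap is widest for Nts and Pcsk1. Among all 22 tested members, 6 were higher and 6 lower without overlap, against 37.7% of all genes tested in either direction.

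Sct encodes secretin, a peptide of S cells that also marks maturing endocrine cells. It read 7.79, 7.77 and 7.75 in control and 8.03, 7.95 and 7.87 in HDAC2 KO, without overlap (difference 0.18, SE 0.044, 1.13-fold, limma adjusted p = 0.0267). The call was kept without HDAC2 KO replicate 2 or 3 and lost without any other array, at 0.0737 to 0.0857. Tac1, the precursor of substance P made by enterochromaffin cells and neurons, read 9.89, 9.89 and 9.86 in control and 9.92, 9.74 and 9.93 in HDAC2 KO. Its groups overlapped, with a difference of -0.02 and a 95% interval of -0.14 to 0.11.

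Nts, the gene of neurotensin, differed most of all 32 members but lay below the signal filter. Neurotensin is a peptide of N cells, best known from the ileum, and also of neurons. Its signal was 4.27, 4.48 and 4.54 in control and 5.58, 5.73 and 5.56 in HDAC2 KO. The groups stood more than 1 log2 unit apart, so that the lowest HDAC2 KO array was well above the highest control array. The difference was 1.19 (SE 0.081, 95% interval 1.00 to 1.38), 2.28-fold. In the limma fit of all 18193 genes without the filter its adjusted p was 0.000271, and in that of all probe sets 0.000323 (2.2% of all probe sets were called higher). Background correction compresses differences at such low signal, and no detection calls were used.

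Its promoter, at chr10:102490369-102490668 on the - strand, is shown as that of the member with the widest separation. It holds the core TGACG once, read on the other strand from position -166, no full element, and an E-box on either side of that core.
Nts: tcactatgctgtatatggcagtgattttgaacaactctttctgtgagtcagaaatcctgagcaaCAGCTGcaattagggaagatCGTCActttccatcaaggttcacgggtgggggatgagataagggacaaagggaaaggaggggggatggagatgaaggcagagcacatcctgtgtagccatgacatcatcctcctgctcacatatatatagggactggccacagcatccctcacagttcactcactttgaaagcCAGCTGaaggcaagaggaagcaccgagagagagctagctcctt
In that same fit without the filter, 5 members were called higher (3.88% of all genes were) and 1 lower (3.74% of all genes). These were Nts, Pcsk1, Sst, Cck and Trpa1, and Chga. Cck, the gene of cholecystokinin made by I cells, read 6.16, 6.11 and 6.06 in control and 6.40, 6.28 and 6.30 in HDAC2 KO (difference 0.22, SE 0.050, limma adjusted p = 0.0453). That call was not made among all probe sets (0.0733) but was with the mean of all probe sets per gene (0.0123). Cck has 1 probe set, so that mean left its values unchanged. It only lowered the filter level enough for Cck to be tested. Gip, the incretin gene of K cells, read 5.33, 5.45 and 5.43 in control and 5.62, 5.61 and 5.48 in HDAC2 KO; the groups did not overlap, and it was not called (difference 0.17, SE 0.057, limma adjusted p = 0.141 without the filter). Ghrl, the ghrelin gene, differed by 0.04 with overlapping groups and a 95% interval of -0.09 to 0.18.

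Of the 3 genes that serve serotonin in enterochromaffin cells, 1 was tested. Tph1, the rate-limiting enzyme of serotonin synthesis outside the nervous system, read 7.66, 7.64 and 7.60 in control and 7.60, 7.54 and 7.59 in HDAC2 KO. The HDAC2 KO arrays lay just below the control arrays, and the gene was not called (difference -0.06, SE 0.035, 95% interval -0.14 to 0.02, limma adjusted p = 0.267). Slc18a1, the vesicular amine transporter of endocrine cells, lay at the filter's edge below it, at 6.67 ± 0.026 (SD, n = 3) in control and 6.62 ± 0.080 in HDAC2 KO. Its 3 probe sets had differences of -0.05, 0.18 and 0.09, each with overlapping groups. Trpa1, an ion channel by which enterochromaffin cells sense irritants, read 6.48, 6.23 and 6.47 in control and 6.72, 6.76 and 6.66 in HDAC2 KO. All HDAC2 KO arrays were above the control arrays (difference 0.32, SE 0.075, limma adjusted p = 0.0492 without the filter, 0.0676 among all probe sets and 0.0137 with the mean of all probe sets per gene). Trpa1 has 1 probe set as well, so that mean left its values unchanged and only let it pass the filter.

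Tph1 is also made by mast cells, and markers of these cells differed unequally. Of 10 mast cell markers 4 were tested and 2 fell, both of them proteases. Mcpt1 fell by 1.94 (SE 0.063, limma adjusted p = 6.61e-07) and Mcpt2 fell by 1.70 (SE 0.065, limma adjusted p = 1.67e-06). Gata2 and Kit, which other cells also express, were not called. The other 6 markers lay below the filter. In the fit without the filter Cpa3 (difference -0.66, limma adjusted p = 0.00329) and Fcer1a (-1.02, 0.00377) were called lower. The chymase gene Cma1 (-0.17, 0.193), the receptor chain gene Ms4a2 (-0.19, 0.0934) and the tryptase genes Tpsb2 (-0.08, 0.693) and Tpsab1 (0.04, 0.823) were not called there. The summed linear signal of the 4 tested markers was 2095 to 2217 in control and 1370 to 1478 in HDAC2 KO, and its part in the Tph1 signal was not tested.

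Among granins and granule proteins, 1 of 7 tested fell and 0 rose by limma (0 also at an unadjusted p under 0.05). Chga, which encodes chromogranin A, a core protein of dense granules in most enteroendocrine cells, read 9.96, 9.91 and 9.88 in control and 9.74, 9.66 and 9.68 in HDAC2 KO. Its groups did not overlap, and all HDAC2 KO arrays were lower (difference -0.22, SE 0.038, 1.17-fold lower, limma adjusted p = 0.00588). Without any 1 array the adjusted p was 0.0115 to 0.0323. Chgb, which encodes chromogranin B, read 11.72, 11.75 and 11.71 in control and 11.64, 11.64 and 11.65 in HDAC2 KO. It was also lower on every HDAC2 KO array, by less, and was not called (difference -0.08, SE 0.031, limma adjusted p = 0.117). It was called lower with array weights (limma adjusted p = 0.0325) and with an intensity trend and robust variances (0.0394). Scgn, the calcium-binding protein secretagogin, had groups without overlap as well, at 7.46 ± 0.035 and 7.41 ± 0.013 (SD, n = 3), and was not called (limma adjusted p = 0.313).

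The secretogranin genes did not separate the groups. Scg2 read 8.66, 8.66 and 8.55 in control and 8.69, 8.65 and 8.70 in HDAC2 KO (95% interval of the difference -0.04 to 0.15). Scg3, which tethers granins to the granule membrane, differed by 0.07 (95% interval -0.02 to 0.17), and Scg5, the chaperone of convertase 2, by 0.00 (95% interval -0.09 to 0.10). Resp18, an endocrine granule protein, differed by -0.01 (95% interval -0.14 to 0.12). Vwa5b2, of which both probe sets lay below the filter, differed by -0.06 and -0.08 with overlapping groups. Of the vesicle proteins, Syp, which encodes synaptophysin, lay below the filter with a difference of 0.01. Cplx2, a complexin that clamps the fusion machinery, read 8.76 ± 0.0021 and 8.72 ± 0.073 and was not called (limma adjusted p = 0.584). That probe set can bind several transcripts. A second, without that mark, read 7.33, 7.40 and 7.32 in control and 7.26, 7.19 and 7.07 in HDAC2 KO. Its groups did not overlap, and with it standing for the gene Cplx2 was not called either (difference -0.17, limma adjusted p = 0.0612). The remaining probe set differed by -0.04 with overlap.

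The promoter of Chga, at chr12:102554691-102554990 on the + strand, is shown as that of the granin called lower. It holds 1 core, from position -44, and 3 E-boxes, and no full TGACGTCA.
Chga: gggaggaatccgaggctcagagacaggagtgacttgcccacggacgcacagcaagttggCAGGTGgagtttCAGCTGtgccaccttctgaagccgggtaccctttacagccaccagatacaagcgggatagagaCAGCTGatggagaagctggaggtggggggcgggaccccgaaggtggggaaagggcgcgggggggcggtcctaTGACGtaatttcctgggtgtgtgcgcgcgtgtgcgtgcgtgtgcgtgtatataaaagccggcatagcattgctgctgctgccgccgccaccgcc
The core TGACG was found in 15 of 29 members and in 23.0% of all genes in the table. The E-box was found in 24 of the 29 and in 75.0% of all genes. Called members with the core were found in both directions (Pcsk1 and Sst higher, Chga lower), as were those with an E-box.

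Of 8 lineage factors, 7 were on the platform and 5 were tested. Neurod1, a factor of newly committed endocrine cells, fell. It read 7.92, 7.89 and 7.85 in control and 7.78, 7.46 and 7.57 in HDAC2 KO (difference -0.28, SE 0.075, 1.21-fold lower, limma adjusted p = 0.0381). The HDAC2 KO arrays were all below the control arrays but spread more widely, with an SD of 0.16 against 0.037. A second probe set of Neurod1 read 7.61, 7.68 and 7.60 in control and 7.30, 7.23 and 7.40 in HDAC2 KO, again without overlap. In the fit of all probe sets that second one was called (difference -0.32, SE 0.057, limma adjusted p = 0.0234; 2.54% of all probe sets were called lower) and the first was not. The call of the first was kept only without HDAC2 KO replicate 1, the adjusted p without another array being 0.0543 to 0.12, and was lost without the signal filter (0.0944).

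Its promoter, at chr2:79456587-79456886 on the - strand, is shown as that of the lineage factor called. It holds 1 E-box, from position -242, and neither form of the cAMP response element.
Neurod1: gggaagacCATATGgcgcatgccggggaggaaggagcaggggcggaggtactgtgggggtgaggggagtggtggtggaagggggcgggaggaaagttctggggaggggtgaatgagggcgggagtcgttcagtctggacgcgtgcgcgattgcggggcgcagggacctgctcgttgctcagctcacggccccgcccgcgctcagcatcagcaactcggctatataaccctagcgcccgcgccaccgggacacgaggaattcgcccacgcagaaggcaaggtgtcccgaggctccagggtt
Neurog3, the factor that commits cells to the endocrine fate upstream of Neurod1, went the other way in value. Its brighter probe set read 6.56, 6.78 and 6.50 in control and 6.72, 6.91 and 6.79 in HDAC2 KO, with overlap (difference 0.19, SE 0.077, unadjusted p = 0.0397, limma adjusted p = 0.136). With the replicate number as a block it was called (limma adjusted p = 0.035), as it was without control replicate 2 (0.0318). Its other probe set, near the low end of the signal, read 4.22, 4.25 and 4.21 in control and 4.33, 4.22 and 4.12 in HDAC2 KO and showed no separation.

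Nkx2-2, a homeodomain factor needed for several endocrine types, had the largest decrease in value among the members. It read 6.54, 6.88 and 6.64 in control and 6.34, 6.40 and 6.29 in HDAC2 KO, without overlap (difference -0.34, SE 0.085). Its mean lay below the filter, and the limma adjusted p without the filter was 0.0583, so it was not called. It was called when the mean of all probe sets stood for each gene, which lowers the filter level enough for it to be tested (limma adjusted p = 0.0172). Insm1, a zinc finger factor of endocrine differentiation, differed by -0.09 (95% interval -0.25 to 0.08), and its second probe set by -0.22 with overlapping groups. Isl1, a factor of several hormone lineages, differed by -0.09 (95% interval -0.21 to 0.03), and its second probe set by -0.17. Pax4 differed by 0.02 (95% interval -0.10 to 0.14).

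Pax6, a factor for proglucagon expression, was measured by 5 probe sets, all below the filter, and they did not agree. The brightest read 5.92, 5.89 and 5.91 in control and 5.88, 5.89 and 5.93 in HDAC2 KO. A second read 5.35, 5.29 and 5.31 in control and 5.50, 5.51 and 5.49 in HDAC2 KO, and another 4.54, 4.49 and 4.75 against 4.96, 4.86 and 4.91. In the latter 2 the groups did not overlap, and neither was called among all probe sets (limma adjusted p = 0.0599 and 0.0646). The remaining 2 differed by 0.02 and 0.03 with overlap.

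**Figure D3:**
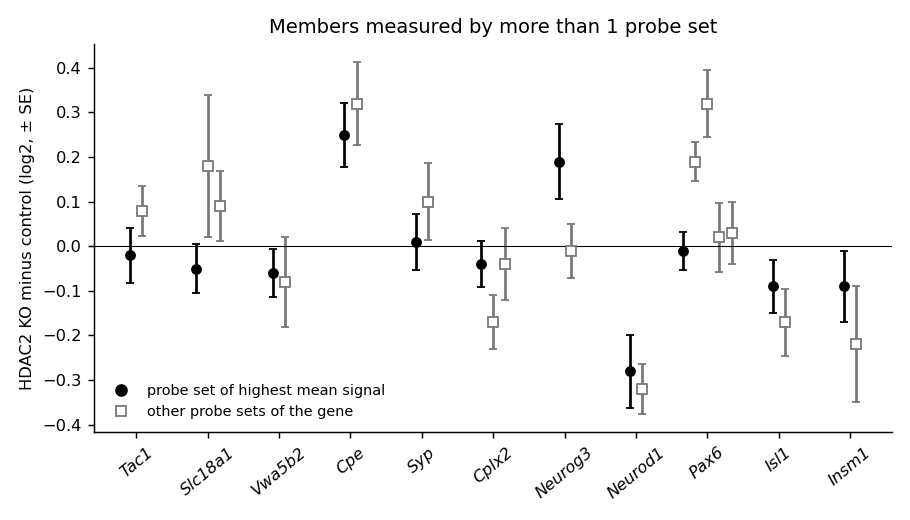
Difference between HDAC2 KO and control in log2 signal, with bars of 1 SE from the fit of all probe sets, for the 11 members measured by more than 1 probe set. Black circles are the probe sets that stood for the gene and open squares the others. Both probe sets of Neurod1 and of Cpe lie on 1 side of zero, whereas those of Pax6 range from -0.01 to 0.32.

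**Figure D4:**
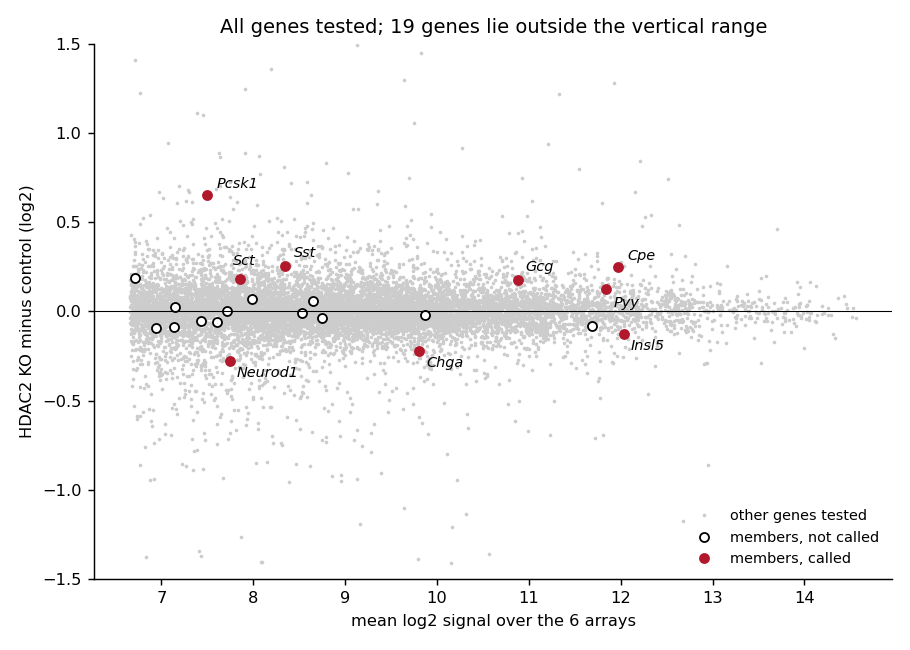
Mean log2 signal over the 6 arrays against the difference between HDAC2 KO and control for all 10916 genes tested (grey), with the 22 tested members as circles, filled in red where called. The vertical axis runs from -1.5 to 1.5 and leaves out 19 genes, none of them a member. Pcsk1 is the tested member farthest from zero, and members called in both directions occur at high and at low signal.

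Other genes of the endocrine program were counted from lists set up for this purpose. Of 18 further transcription factors 8 were tested, of which 1 rose and 3 fell, with a median of -0.089. Foxa2, which acts in several endocrine lineages, fell by 0.25 (SE 0.036, limma adjusted p = 0.00261), and Atoh1, the switch for all secretory cells, by 0.20 (SE 0.035, limma adjusted p = 0.0057). Hhex, needed for somatostatin cells of the pancreas, fell by 0.27 (SE 0.062, limma adjusted p = 0.0213). Mlxipl, a carbohydrate-responsive factor also made by absorptive cells, rose by 0.25 (SE 0.059, limma adjusted p = 0.0236).

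Of 20 tested genes of granules and exocytosis 4 rose and 1 fell, with a median of 0.027. Vamp2, a vesicle SNARE, rose 1.19-fold (limma adjusted p = 0.00371), the calcium sensor gene Syt7 1.12-fold (0.0233) and Rab27a, a granule docking GTPase, 1.11-fold (0.0306). Pam, whose enzyme amidates the ends of many peptide hormones, fell by 0.18 (SE 0.036, limma adjusted p = 0.012). All of these genes are also made by cells other than endocrine ones.

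Of 10 tested genes in a list of other gut peptides and amine genes, 3 rose and 2 fell. Ddc, the decarboxylase that completes serotonin synthesis and is also made by enterocytes, read 11.53, 11.55 and 11.48 in control and 11.31, 11.24 and 11.25 in HDAC2 KO, without overlap (difference -0.25, SE 0.038, limma adjusted p = 0.00306). Gch1, which makes the cofactor of tryptophan hydroxylase, rose by 0.33 (SE 0.038, limma adjusted p = 0.000775). Of the enzymes that break amines down, Maob fell by 0.31 (SE 0.032, limma adjusted p = 0.000479) and Maoa rose by 0.13 (SE 0.031, limma adjusted p = 0.0252). The remaining riser was Guca2a, which encodes guanylin. Slc6a4, the serotonin transporter gene, was not called (difference 0.02, limma adjusted p = 0.802), and Slc18a2, a vesicular amine transporter gene, lay below the filter (difference 0.03).

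Receptors for the hormones and for serotonin were mostly below the filter, 19 of 22 on the platform. Of the 3 tested, 2 fell. Htr4, the serotonin receptor that promotes secretion and motility, read 8.88, 8.88 and 8.86 in control and 8.02, 7.80 and 7.93 in HDAC2 KO. The groups stood far apart, and the signal was 1.94-fold lower (difference -0.96, SE 0.054, limma adjusted p = 1.67e-05). Npy1r, a receptor of peptide YY and its relatives, was 1.25-fold lower (difference -0.32, SE 0.040, limma adjusted p = 0.00112), and Htr3a was not called (0.525). Below the filter, Cckar, the receptor gene for cholecystokinin, read 4.98, 4.95 and 4.91 in control and 6.22, 6.17 and 6.36 in HDAC2 KO. Its groups stood far apart in the other direction, and it was the receptor called higher in the fit without the filter (difference 1.30, limma adjusted p = 3.96e-05). The other 18 below the filter were not called there. Of 6 tested nutrient and metabolite sensors 0 were called by limma, of which Kcnj11 and Slc5a1 had an unadjusted p under 0.05 (0.0334 and 0.047). Ffar2, the receptor for short-chain fatty acids in L cells, read 9.22 ± 0.034 and 9.19 ± 0.019 (SD, n = 3, limma adjusted p = 0.624).

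**Figure D5:**
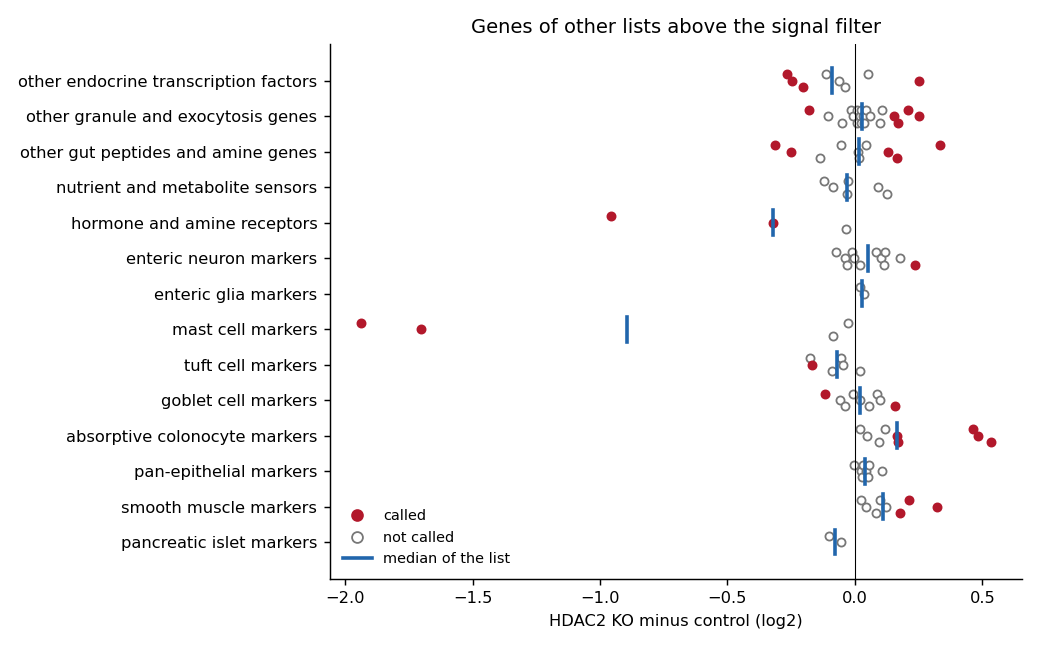
Difference between HDAC2 KO and control in log2 signal for genes above the signal filter in 14 lists outside the members, with called genes filled in red, other genes open, and the median of each list as a blue bar. Most lists centre near zero, Mcpt1, Mcpt2 and Htr4 lie far to the left, and absorptive colonocyte and smooth muscle markers lie mostly to the right.

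Several members are also made by enteric neurons, among them Chgb, Scg2, Scg3, Tac1, Nts, Cpe, Pcsk1, Syp and Cplx2. Of 16 neuron markers 12 were tested: Hand2 rose by 0.23 (SE 0.033, limma adjusted p = 0.00203) and the other 11 were not called, with a median of 0.051. Elavl3, Phox2a and Chat lay below the filter. The pan-neuronal genes Stmn2 and Prph differed by 0.18 and 0.12 (limma adjusted p = 0.0793 and 0.14). Vip, Uchl1, Nos1 and Ret differed by 0.11, 0.10, 0.08 and 0.02. Elavl4, Tubb3, Gap43, Nefm and Nefl differed by -0.07, -0.04, -0.03, -0.01 and 0.00, so the neuron markers did not rise together. The summed linear signal of the 12 was 2729 to 2876 in control and 2959 to 3038 in HDAC2 KO. Both tested glia markers, Sox10 and Erbb3, were not called. Erbb3, which gut epithelium also expresses, was far brighter (11.98 to 12.03 on the 6 arrays) than Sox10 (7.15 to 7.31) and carried nearly all of their summed signal of 4168 to 4246 and 4219 to 4342. The glia markers S100b, Gfap and Foxd3 lay below the filter. Smooth muscle markers rose in 3 of 8 cases, with a summed signal of 45550 to 46370 in control and 49930 to 50860 in HDAC2 KO. The neuron and muscle sums did not overlap between groups. Their part in the rise of any member, Pcsk1, Sst, Cpe and Nts included, was not tested.

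Other epithelial types moved as follows. Absorptive colonocyte markers rose in 5 of 9 cases, among them Car1 by 0.46 and Krt20 by 0.48, with a median of 0.165 and a summed signal of 63820 to 64970 in control and 74560 to 75850 in HDAC2 KO. Of 9 goblet cell markers 1 rose and 1 fell (Spdef and Retnlb), with sums of 147400 to 147900 and 147200 to 149600. Of 6 tuft cell markers 1 fell (Alox5ap), with sums of 1050 to 1096 and 978.2 to 1036. The 2 tested islet markers, Ins2 and Ppy, were not called, with sums of 523.2 to 585.6 and 532.1 to 545.7. The part of these cell types in the members' differences was not tested.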

How the data were processed

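Each of 6 mouse colon RNAs was measured on its own one-colour array. The log2 values were deposited by the authors after RMA, named without a version in the submitters' processing notes; RMA corrects background, quantile-normalizes and summarises each probe set, which hides changes in total RNA. Values ran from 2.389 to 14.64. No scanner file or scan date was used, so hybridisation batches remain untested.

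A platform annotation dated 2016 gave 1 symbol to 34945 probe sets, several to 932 and none to 9160, beside 64 controls. The probe set of highest mean stood for its gene, and genes at or above the 40th percentile of these means were tested. limma 3.58.1 (R 4.3.3, lmFit and eBayes) compared the groups with n = 3 each and Benjamini-Hochberg adjustment over all genes tested. Values without the filter come from a fit of all 18193 genes, and those among all probe sets from a fit of the 34945. Exact two-sided permutation tests of 3 against 3 arrays can give no p below 0.1, so none is quoted. The fit was tested on simulated data in which the arrays were independent, so that test does not cover pairing or batches. The number of arrays limits precision. The labels do not settle whether an array holds 1 mouse or a pool and name no litters, so p-values measure only the spread between these samples.

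The members and lists were chosen with earlier results of these data known. Named are all members on the platform, Hdac2 and Hdac1, and of each other list up to 4 tested genes with the smallest p, or all of lists with 5 or fewer tested. Maoa, Slc6a4 and genes of those lists below the filter were added after their values were seen. So were further enteric neuron, smooth muscle and pan-epithelial markers.

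Deviations from the group means correlated between same-numbered arrays with r of 0.2011 to 0.3356, against -0.3667 to 0.1828 for other pairs across groups. With 3 arrays per group these weak correlations do not establish a pairing, and no label names one. Differences, intervals and p-values are therefore from the unpaired fit unless the block is named. The paired fit is given where it changed a call.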

Additional observations from a re-analysis of the deposited data

How the results depend on the processing

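Alternatives changed the filter, the probe set standing for a gene, the scaling and the variance model, or added the replicate block, or left out 1 array. With all arrays, 6 members were called higher and 3 lower, 5 hormone and amine genes, 3 granule, processing and exocytosis genes and 1 lineage factor were called, and 1952 genes in all. Leaving out 1 array gave 2 to 6 members higher, 1 to 2 lower, 1 to 4 hormone and amine genes, 2 to 3 granule genes, 0 to 1 lineage factors and 1138 to 2125 genes in all. Testing all probe sets one by one gave 3 members higher and 2 hormone and amine genes. Without the signal filter 1 member was lower and 0 lineage factors were called, and 0 lineage factors were called with a filter of the 60th percentile, which Neurod1 did not pass. The mean of all probe sets gave 2 lineage factors, as did the replicate block; array weights gave 3506 genes in all. The replicate block ended the call of Insl5, made that of Neurog3, and changed no other member's call (1943 genes in all). Members gained as calls were Nkx2-2, Cck and Trpa1 with the mean of all probe sets, and Chgb with array weights or with an intensity trend and robust variances. Nkx2-2, Cck and Trpa1 have 1 probe set each, so their values were unchanged and they gained by passing the lowered filter. Further gains were Nts, Cck and Trpa1 without the signal filter, Nts among all probe sets, and Neurog3 without control replicate 2.

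Pcsk1, Sst and Chga were called in every alternative that tested them. Signs turned only in members not called: Tac1 (-0.05 to 0.04 without 1 array, 0.03 with the mean of all probe sets, 0.02 with array weights), Scg5 (0.00 with array weights, -0.03 to 0.03 without 1 array), Resp18 (-0.06 to 0.05 without 1 array) and Pax4 (-0.02 to 0.07 without 1 array). Further quantile normalization and median centring changed no member's call. Signals near the low end, as for Nts, limit the size of a fold.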
